A study of Mus musculus with 6 samples.

Results

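The genes described here are 10 genes that mark T cells and natural killer (NK) cells, namely Cd3e, Cd3g, Cd3d, Trac, Cd4, Cd8a, Lck, Cd2, Il7r and Nkg7. They were taken by symbol from a table of 36727 genes, and all 10 were found. RNA was sequenced from ovary of adult female F4 inbred Swiss albino mice, 135 to 140 days old, in tissue that the labels call estrous-phased. Mice of high litter size gave 3 libraries, numbered 1, 3 and 4, and mice of low litter size gave another 3, numbered 1, 2 and 5. Values are listed in that order throughout. No treatment, genotype or transgene is given, and litter size is the only labelled difference between the groups. The labels do not say whether the libraries came from separate animals, so p-values measure the spread between these libraries, which may be technical.

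T cells recognise antigen through a receptor of alpha and beta chains, or of gamma and delta chains, that signals through the CD3 subunits. The co-receptors CD4 and CD8 bring the kinase Lck to that receptor. NK cells carry no such receptor and kill with granules of perforin and granzymes, as cytotoxic T cells do. In the ovary and the rest of the reproductive tract, both cell types are known as minor resident populations whose numbers change with the cycle and with pregnancy. In bulk RNA, fewer cells of a type and less RNA per cell cannot be told apart.

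Before the comparison, the tissue label was checked against markers. Total estimated counts per library ran from 17620903 to 24758222. In 3 libraries, high 1, high 3 and low 2, the summed ovarian markers were lower than in the others. The 10 oocyte markers summed to 2.81, 4.0 and 4.43 CPM in these libraries, against 17.0 to 76.1 CPM in the other 3 (CPM is the usual depth-scaled count, taken here over library totals scaled by the trimmed mean of M-values, TMM). The 9 granulosa cell markers summed to 102, 46.7 and 64.4 CPM there and 293 to 563 CPM in the other 3, and the 8 luteal markers to 205, 257 and 99.8 CPM against 772 to 9967 CPM. Fshr, the follicle-stimulating hormone receptor of granulosa cells, chosen after its values were seen, had 0, 0 and 1 counts there. Inha, of the same list, had 1.64, 2.12 and 1.23 CPM there and 110 to 199 CPM in the other 3. Hsd3b1, of the luteal list, had 1.69, 5.06 and 1.81 CPM there and 332 to 3261 CPM in the other 3. The granulosa marker Serpine2 differed less, with 70.6, 29.4 and 39.2 CPM there and 66.0 to 161 CPM in the other 3. Results are therefore also given without these 3 libraries, a choice made after seeing the data, which leaves high 4 alone against low 1 and low 5, with the single high library assumed to vary like the low group.

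All 10 genes passed the filter on low counts, which left 16455 genes in all, and 0 of the 10 passed the test between high and low litter size. Their levels were low everywhere, from 0.520 to 11.4 CPM, which were 9 to 265 counts. By edgeR's quasi-likelihood test, adjusted p-values ran from 0.380 to 0.923, and 0 of 10 had an unadjusted p under 0.05 (smallest 0.0662). DESeq2 also called 0 of 10, with 2, Trac and Il7r, at an unadjusted p under 0.05 (adjusted p = 0.241 and 0.236). Over all genes tested, edgeR called 0.00608% (0% higher, 0.00608% lower) and gave 14.4% at an unadjusted p under 0.05 (6.56% higher, 7.82% lower). DESeq2 called 6.18% (2.1% higher, 4.08% lower) and gave 18% at that level (9% higher, 8.99% lower).

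Of the 10 log2 fold changes, high minus low, 8 were positive and 2 negative, with a median of 0.37, beside a median of 0.068 and 55.3% positive over all genes tested. Without high 1 the median was 0.057 with 5 positive. Without high 4 it was 0.63. Without the 3 libraries of low ovarian markers it was -0.22 with 4 positive. The median thus stayed positive with each single library left out and was negative only without these 3. Over all genes tested the median was 0.049 without high 1, 0.0077 without high 4 and -0.040 without these 3. The 3 high libraries lay wholly above the 3 low ones for 2 of the 10 genes, Cd8a and Il7r, and wholly below for 0. That is 20% of the genes, beside 19.5% of all genes tested whose groups did not overlap in either direction (8.75% higher, 10.8% lower).

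**Figure D1:**
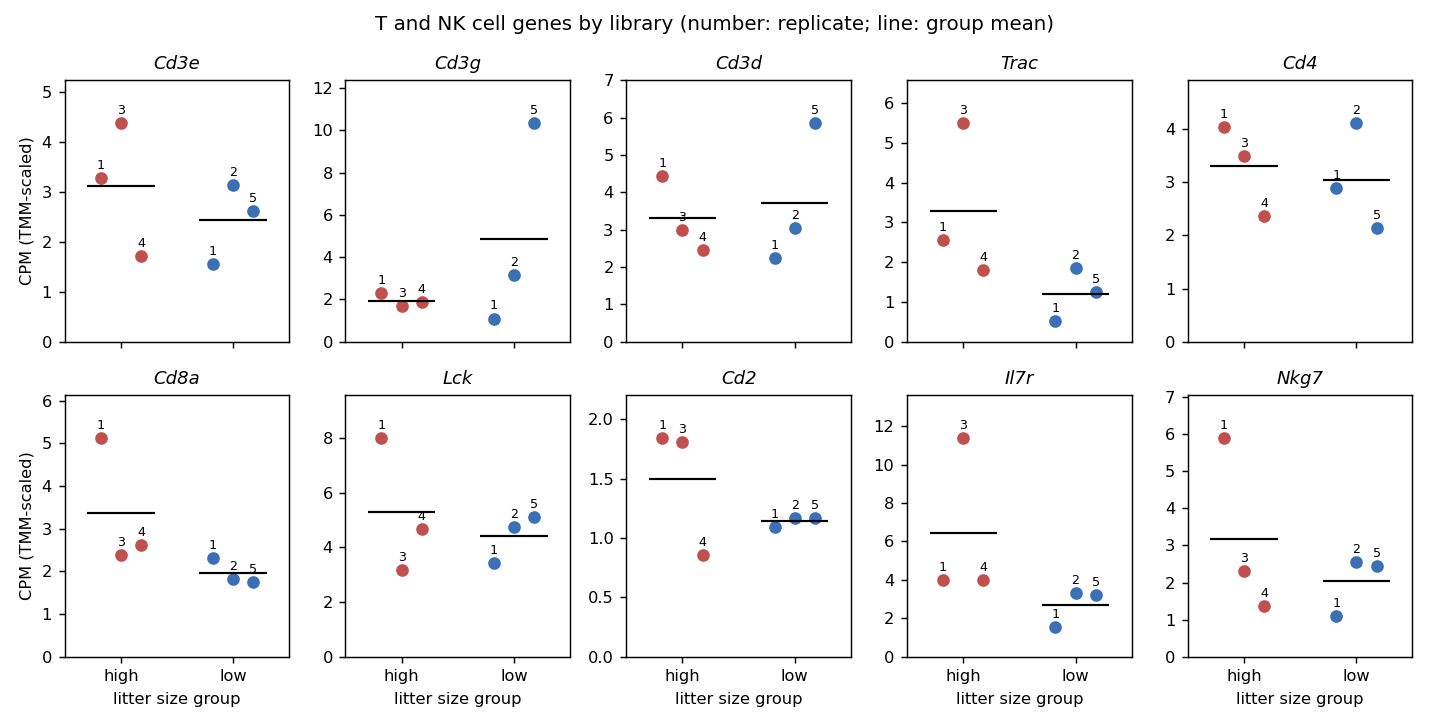
CPM of each of the 10 genes (vertical axes start at 0 and differ between panels) in the 3 high and 3 low litter size libraries, with the replicate number above each point and a line at the group mean. Cd8a and Il7r are the 2 genes whose groups do not overlap, and the highest point is high 1 for Cd8a, Lck, Nkg7 and Cd2, high 3 for Cd3e, Trac and Il7r, low 2 for Cd4 and low 5 for Cd3g and Cd3d.

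The 3 CD3 genes lie side by side on chromosome 9, in a stretch of 40056 bases (GRCm38). Cd3g (ENSMUSG00000002033, 44969572 to 44980431, minus strand) and Cd3d (ENSMUSG00000032094, 44981786 to 44987339, plus strand) start 1355 bases apart and point away from each other. Cd3e (ENSMUSG00000032093, 44998740 to 45009627, minus strand) is the third. The bases before each start are shown because Cd3g and Cd3d were both highest in low 5 while Cd3e was not. They are from the RefSeq promoter table on GRCm38.p6, 5′ to 3′ on the gene's strand, up to 250 bases and stopping where a GENCODE exon begins. Capitals mark matches on either strand to the motif AGGAAG (bound by ETS factors), CANCTG (E proteins), CTTTGA (TCF factors) and TGTGGT (RUNX factors), which were chosen with these values known.
Cd3g, chr9:44980432-44980681: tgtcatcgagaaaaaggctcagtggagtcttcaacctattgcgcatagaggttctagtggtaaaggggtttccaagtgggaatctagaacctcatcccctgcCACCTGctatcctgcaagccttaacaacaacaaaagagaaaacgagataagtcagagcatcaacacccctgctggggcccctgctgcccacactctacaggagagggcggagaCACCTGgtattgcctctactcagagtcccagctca
Cd3d, chr9:44981536-44981785: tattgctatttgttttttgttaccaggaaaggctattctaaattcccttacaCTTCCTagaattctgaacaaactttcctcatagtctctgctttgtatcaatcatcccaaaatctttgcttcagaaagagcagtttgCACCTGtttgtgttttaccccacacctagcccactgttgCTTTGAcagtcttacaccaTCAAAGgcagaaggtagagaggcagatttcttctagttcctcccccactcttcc
Cd3e, chr9:45009628-45009861: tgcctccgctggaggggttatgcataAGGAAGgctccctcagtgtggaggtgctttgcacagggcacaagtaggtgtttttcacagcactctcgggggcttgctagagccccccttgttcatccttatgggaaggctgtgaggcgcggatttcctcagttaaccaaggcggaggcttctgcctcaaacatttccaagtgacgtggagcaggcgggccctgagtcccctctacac
In these stretches the E protein motif was in those of Cd3g (2 matches) and Cd3d (1 match) and in 44.8% of all 32851 promoter windows of 250 bases. The ETS motif was in those of Cd3d and Cd3e (1 match each) and in 29.5% of all windows. The TCF motif was in that of Cd3d (2 matches) and in 13.8% of all, and the RUNX motif was in none of the 3 and in 14.0% of all. Among the other genes described first that had a window of 250 bases, the E protein motif had 2 matches in Nkg7, 1 in Il7r and 0 in Cd8a. Lck had 1 match in 1 window and 0 in another. Nkg7, Lck and Cd8a were highest in high 1 and Il7r in high 3. A link between these motifs and the order of libraries was not tested. A match is a description of the letters and not a bound site.

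Cd3g encodes the gamma subunit of CD3. It had 2.30, 1.69 and 1.86 CPM in high 1, high 3 and high 4 and 1.10, 3.15 and 10.3 CPM in low 1, low 2 and low 5. The high libraries were alike, while the low libraries spanned a 9.41-fold range that enclosed them, and low 5 was 3.28 times the next highest library. Only 0.140% of all genes tested were highest in low 5 by at least 3-fold over the next library. The log2 fold change was -1.32 (SE 0.79, edgeR adjusted p = 0.495), and without low 5 it was -0.12.

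Cd3d, the delta subunit, had 4.45, 3.0 and 2.46 CPM (high), then 2.25, 3.04 and 5.85 CPM (low). Low 5 was again the highest and the groups overlapped (log2 fold change -0.17, SE 0.49, edgeR adjusted p = 0.902). Without low 5 the value was 0.32, and without the 3 libraries of low ovarian markers -0.75. Cd3e, the epsilon subunit, had 3.27, 4.37 and 1.71 CPM for high against 1.56, 3.15 and 2.61 CPM for low litter size (0.35, SE 0.50, edgeR adjusted p = 0.791). Here high 3 was the highest and low 5 lay in the middle, so the CD3 genes did not share an order of libraries. Without the 3 libraries of low ovarian markers Cd3e had a log2 fold change of -0.32, and without high 3 of 0.031.

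Trac encodes the constant region of the alpha chain (ENSMUSG00000076928, chromosome 14, 54220521 to 54224206, plus strand, receptor constant gene). It had 2.56, 5.49 and 1.81 CPM at high litter size and 0.520, 1.87 and 1.25 CPM at low. High 3 was 2.15 times the next highest, and low 2 lay just above high 4. Its log2 fold change of 1.43 was the largest of the 10 (SE 0.65, edgeR adjusted p = 0.380), and without high 3 it was 0.85. The group means were 3.29 ± 1.95 and 1.21 ± 0.674 CPM (SD, n = 3 each). Trbc1 and Trbc2, the constant regions of the beta chain, were chosen after their values were seen. Their log2 fold changes were 0.44 (SE 0.83) and -0.25 (SE 0.64), and their highest libraries were low 5 and low 2, so they did not share the Trac pattern.

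The co-receptors differed in their pattern. Cd8a, the alpha chain of CD8 (ENSMUSG00000053977, chromosome 6, 71373427 to 71379173), had 5.11, 2.37 and 2.61 CPM (high), then 2.31, 1.81 and 1.75 CPM (low). The groups did not overlap, although high 3 and low 1 had 38 and 40 counts before scaling. Its log2 fold change was 0.78 (SE 0.45, edgeR adjusted p = 0.478), 0.34 without high 1 and 0.33 without the 3 libraries of low ovarian markers. Cd4 (ENSMUSG00000023274, chromosome 6, 124864692 to 124888221) had 4.04, 3.50 and 2.36 CPM for high against 2.89, 4.11 and 2.14 CPM for low litter size. It had the narrowest range of the 10, 1.92-fold, and a log2 fold change of 0.12 (SE 0.43, edgeR adjusted p = 0.923), which was -0.12 without the 3 libraries of low ovarian markers.

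The Cd4 to Cd8a ratio needs no library scaling. In counts it was 0.790, 1.47 and 0.904 for high and 1.25, 2.26 and 1.22 for low litter size. Only high 3 among the high libraries reached the range of the low ones. On the log2 scale the difference was -0.57 (0.024 ± 0.47 against 0.59 ± 0.50, SD, n = 3 each, exact two-sided permutation p = 0.3, 0.9 adjusted over 3 ratios, where 0.1 is the smallest unadjusted p possible). It was -0.28 without low 2. Dendritic cells of the mouse can carry either co-receptor, and their 8 markers summed to 48.6 to 66.9 CPM at high and 26.5 to 36.7 CPM at low litter size, with 0 markers at 0. Their part in the Cd8a values was not tested.

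Lck, the kinase that starts receptor signalling (ENSMUSG00000000409, chromosome 4, 129548344 to 129573641), had 7.97, 3.18 and 4.68 CPM at high litter size and 3.41, 4.75 and 5.11 CPM at low. High 3 was the lowest and high 1 the highest, so the high libraries enclosed all low ones (log2 fold change 0.26, SE 0.44, edgeR adjusted p = 0.826). Without high 1 the value was -0.18, and without the 3 libraries of low ovarian markers 0.10. Cd2, an adhesion receptor of T and NK cells (ENSMUSG00000027863, chromosome 3, 101275899 to 101287939), had 1.84, 1.81 and 0.855 CPM against 1.10, 1.17 and 1.17 CPM. The low libraries were nearly equal and lay between high 4 and the other high libraries (0.39, SE 0.46, edgeR adjusted p = 0.744). Cd2 had 17 to 36 counts. Without the 3 libraries of low ovarian markers its log2 fold change was -0.44.

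Il7r, the receptor for the survival factor interleukin 7 (ENSMUSG00000003882, chromosome 15, 9505788 to 9530176), had 3.99, 11.4 and 3.97 CPM (high), then 1.56, 3.31 and 3.23 CPM (low). The groups did not overlap, yet only high 3 stood far off, at 2.85 times the next library. The log2 fold change was 1.25 (SE 0.58, edgeR adjusted p = 0.385), and it was 0.56 without high 3 and 0.69 without the 3 libraries of low ovarian markers. Group means were 6.44 ± 4.26 and 2.70 ± 0.988 CPM (SD, n = 3 each).

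Trac and Il7r were the closest pair among the 45 pairs of these genes, with a root mean square difference of 0.27 between their log2 CPM, each centred on its own mean over the 6 libraries. Their shared peak, high 3, was also the highest library for 27.7% of all genes tested. The 13 adipocyte markers summed to 28731 CPM in high 3, against 3005 to 3979 CPM in the other high libraries and 477 to 4461 CPM in the low libraries, where Ucp1 alone was at 0, in low 1 and low 2. The 9 lymph node stroma markers summed to 352, 280 and 143 CPM (high), then 166, 272 and 158 CPM (low), so high 3 was not the highest by sum. By gene, 4 of the 9 markers were highest in high 3 and 3 in high 1. Only 4 of the 9 passed the filter on low counts, and Ccl19, Madcam1, Glycam1, Chst4 and Tnfsf11 did not. Ccl21a and Lyve1 made up most of each sum, so the sums mainly follow these genes and not the whole list. The T cell chemokine Ccl21a had 252 CPM in high 1, 191 CPM in low 2 and 130 CPM in high 3. Lyve1 had 105 CPM in high 3, 84.0 CPM in low 5 and 28.5 to 73.2 CPM elsewhere. The B cell chemokine Cxcl13 of this list, chosen after its values were seen, had 34.1 CPM in high 3 and 0.818 to 3.68 CPM elsewhere. The part of these markers in the Trac and Il7r values was not tested.

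Nkg7, a protein of cytotoxic granules in NK cells and CD8 T cells (ENSMUSG00000004612, chromosome 7, 43437073 to 43438249), had 5.88, 2.31 and 1.36 CPM for high against 1.10, 2.56 and 2.46 CPM for low litter size. High 1 was 2.30 times the next library, and the other 5 overlapped. The log2 fold change was 0.64 (SE 0.66, edgeR adjusted p = 0.701), and it was -0.18 without high 1 and -0.43 without the 3 libraries of low ovarian markers. Against Cd3e, Nkg7 had count ratios of 1.80, 0.529 and 0.794 for high and 0.704, 0.814 and 0.940 for low litter size. The difference of the log2 ratios was 0.16 (exact two-sided permutation p = 0.9, 0.9 adjusted), and -0.33 without high 1.

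**Figure D2:**
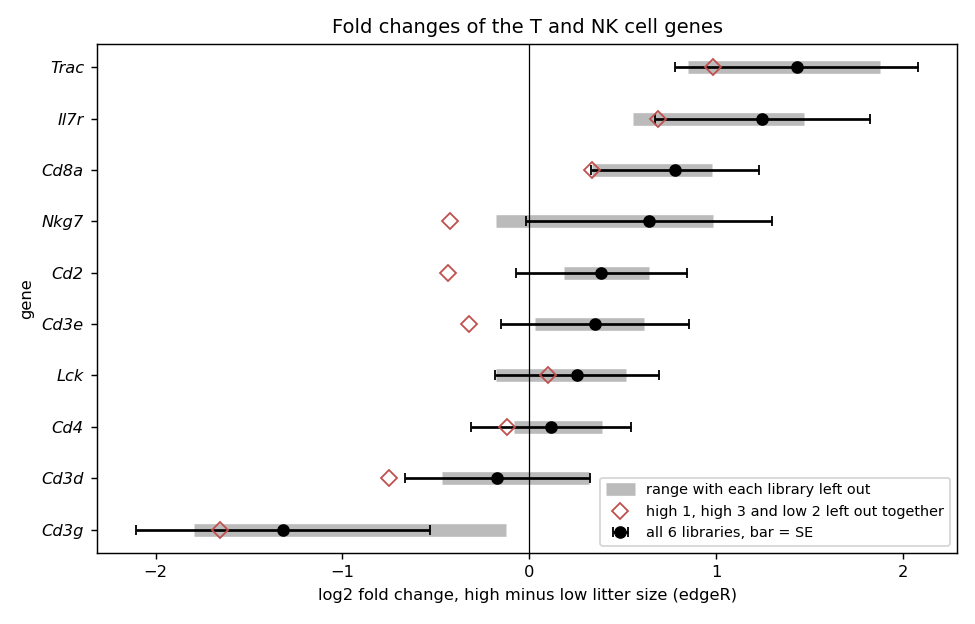
Log2 fold changes of the 10 genes, high minus low litter size (horizontal axis), as points with SE bars, with the range when each library is left out in grey and the value without high 1, high 3 and low 2 as open diamonds. Trac, Il7r, Cd8a and Cd3g keep their sign throughout, and 0 of 10 passed the test.

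Ptprc, the CD45 phosphatase found on nearly all white blood cells, gave the leukocyte background. It had 72.9, 82.3 and 63.8 CPM at high litter size and 48.6, 59.1 and 58.2 CPM at low, so the groups did not overlap (log2 fold change 0.40, SE 0.19, edgeR adjusted p = 0.389; 0.22 without the 3 libraries of low ovarian markers). The 12 pan-leukocyte genes summed to 359 to 472 CPM at high and 277 to 393 CPM at low litter size. Of their log2 fold changes 11 were positive and 1 negative, with a median of 0.39, beside 0.37 for the T and NK cell genes described first. Medians of other lists were 1.56 for neutrophil, 0.67 for dendritic cell, 0.28 for macrophage and monocyte, 0.10 for B cell and -0.44 for plasma cell markers. Relative to Ptprc, the Cd3e counts were 4.48, 5.31 and 2.68% for high and 3.21, 5.32 and 4.49% for low litter size. That ratio differed by -0.090 on the log2 scale (exact two-sided permutation p = 0.6, 0.9 adjusted) and was 0.19 without high 4 and 0.070 without low 2.

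**Figure D3:**
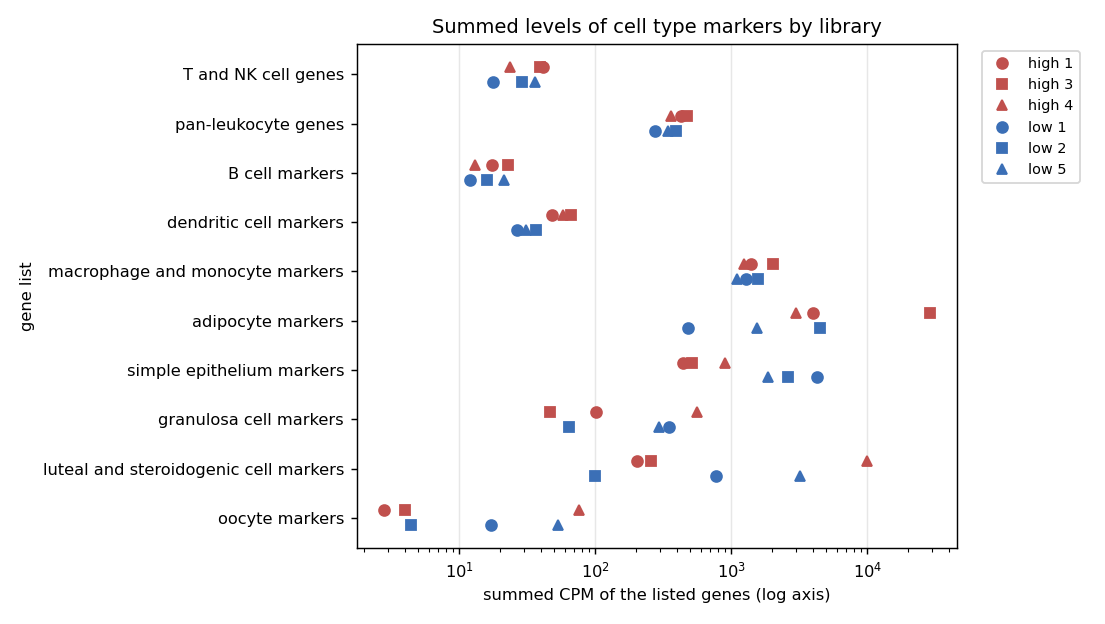
Summed CPM (log axis) of the 10 genes and of marker lists of other cell types in each of the 6 libraries. Adipocyte markers are highest in high 3, oocyte, granulosa and luteal markers are lowest in high 1, high 3 and low 2, and simple epithelium markers are 442 to 904 CPM at high and 1864 to 4230 CPM at low litter size.

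Levels can be set against each other only per length of transcript. Per kilobase of the median coding transcript, and averaged over the 6 libraries, Trac was highest with 5.44 ± 4.19 CPM, followed by Nkg7 with 3.33 ± 2.18 and Cd3g with 3.33 ± 3.38 (SD, n = 6). Lck (2.30 ± 0.813), Cd3d (2.17 ± 0.852) and Cd3e (1.90 ± 0.722) came next. Il7r (1.30 ± 0.976), Cd2 (1.15 ± 0.351), Cd4 (1.02 ± 0.270) and Cd8a (0.873 ± 0.408) were the lowest. No neighbours in this order differed by more than their spread. The order differed between the groups. At high litter size Trac came first (7.96 ± 4.72, SD, n = 3) and Cd3g had 1.90 ± 0.310, while at low litter size Cd3g came first (4.75 ± 4.74) and Trac second (2.93 ± 1.63). With the union of all exons as the length, over all 6 libraries, Nkg7 came first, Trac second and Cd3e last.

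The wider receptor list, of 18 chains and co-receptors, had 14 genes tested, of which 0 passed, 9 had positive and 5 negative log2 fold changes, and the median was 0.40. Cd6, a co-receptor that tunes the strength of the signal, had 1.53, 1.56 and 1.01 CPM against 0.231, 0.693 and 0.429 CPM (log2 fold change 1.58, SE 0.54, edgeR adjusted p = 0.296). Its groups did not overlap. Cd28, the costimulatory receptor, had 1.24 (SE 0.74), 0.073 without high 4, where it had 8.65 CPM, and 2.53 without the 3 libraries of low ovarian markers. Cd5, an inhibitory receptor, had 0.81 (SE 0.53), and 0.098 without those 3.

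Trdc, the constant region of the delta chain of the other receptor type, had 1.02, 0.250 and 0.955 CPM (high), then 0.520, 1.33 and 5.38 CPM (low). Low 5 was 4.03 times the next library (log2 fold change -1.69, SE 0.96, edgeR adjusted p = 0.471; -0.31 without low 5). Cd3g and Cd3d were highest in that library too. The genes that follow for low 5 and high 1 were chosen after their values were seen, apart from Gzmb and Gzma, which the naming rule gave. The delta variable segment Trdv4 had 19, 10 and 12 counts (high), then 8, 26 and 108 counts (low), and the gamma segment Tcrg-V6 had 2, 2 and 1 against 0, 0 and 38 counts. Trdv4 and Tcrg-V6 encode a gamma delta receptor known from resident T cells of the reproductive tract and dermis. Other delta segments had few counts. Trdv3 had 2, 16 and 0 against 0, 0 and 2 counts, and Trdv5 had 3, 0 and 0 against 0, 1 and 1. Trdv2-2 had 2, 0 and 0 against 1, 1 and 5 counts, and Trdv1 had 1 count, in high 4. Cd163l1, a scavenger receptor of gamma delta T cells, had 1.69, 1.87 and 2.71 CPM for high against 1.33, 2.35 and 20.4 CPM for low litter size. The chemokine receptor Cxcr6 had 17.0 CPM in low 5 and 2.25 to 6.99 CPM elsewhere. The kinase Blk, of B cells and of some gamma delta T cells, had 5.65 CPM in low 5 and 0.256 to 0.960 CPM elsewhere. The 10 B cell markers, Blk among them, summed to 21.3 CPM in low 5 and 22.8 CPM in high 3, and 12.0 to 17.4 CPM in the other 4 libraries, with 0 markers at 0. Of the 18 genes of the receptor list 5 were highest in low 5 and 5 in high 3. Tcrg-C4 had 0.749 to 1.07 CPM in the other libraries and 1.13 CPM in low 5, and Tcrg-C2 was highest in high 3, with 0.624 CPM against 0.312 CPM in low 5. Tcrg-C1 had 1.25 CPM in low 5 and 0.125 to 0.402 CPM elsewhere. These values describe a single library, and low 1 and low 2 did not share the peak.

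The cytotoxic list of 24 genes had 21 tested, of which 0 passed with edgeR, 16 were positive and 5 negative, with a median of 0.39. Gzmb, a granzyme that triggers death of target cells, had 19.1, 1.81 and 1.16 CPM at high litter size and 0.578, 0.587 and 1.29 CPM at low. Only high 1 was far from the rest (log2 fold change 3.15, SE 1.17, edgeR adjusted p = 0.314; 0.82 without high 1 and 0.26 without the 3 libraries of low ovarian markers). Gzma, another granzyme, had 2.25, 1.12 and 0.905 CPM against 0.347, 0.267 and 0.857 CPM, with no overlap (1.51, SE 0.64, edgeR adjusted p = 0.355, and 0.53 without those 3). Before scaling, however, Gzma had 18 counts in high 4 and 22 in low 5. Prf1, the pore-forming perforin, had 7.21 CPM in high 1 and 0.404 to 1.5 CPM elsewhere, and the NK receptor Ncr1 had 5.83 and 0.635 to 2.03 CPM. The granzyme gene Gzmc had 162 counts in high 1 and 5, 3, 0, 0 and 1 in high 3, high 4, low 1, low 2 and low 5. Gzmd had 74 counts in high 1 and 4, 0, 0, 1 and 0 in the others, in the same order. Of the 24 listed genes 13 were highest in high 1 and 11 elsewhere. Gzmk had 0 counts in high 1 and was highest in low 2, with 11 counts. The NK receptor Klrb1c was highest in low 2 (1.97 CPM, with 1.33 CPM in high 1), and Ifng, the gene of interferon gamma, in low 5 with 13 counts. The NK receptor Klrk1 had 4.55 CPM in high 1, only 1.18 times the next library. Nkg7, Cd8a, Lck and Cd2 were highest in high 1 as well. High 1 was the highest library for 15.3% of all genes tested, and for 0.419% by at least 3-fold.

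The other genes named from this list were not cytotoxic products. Itga2, an integrin also found on epithelium and platelets, had a log2 fold change of -1.72 (SE 0.40, edgeR adjusted p = 0.190; -1.09 without the 3 libraries of low ovarian markers), and it passed with DESeq2 (adjusted p = 0.00575) and with the likelihood ratio test of edgeR (adjusted p = 0.0104). Of the 7 simple epithelium markers 6 also had negative log2 fold changes, and the list summed to 442 to 904 CPM at high and 1864 to 4230 CPM at low litter size, with 0 markers at 0, and their part in the Itga2 values was not tested. Serpinb9, which protects killer cells from their own granzyme, had 0.67 (SE 0.18, edgeR adjusted p = 0.222) and passed with DESeq2 (adjusted p = 0.0321).

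**Figure D4:**
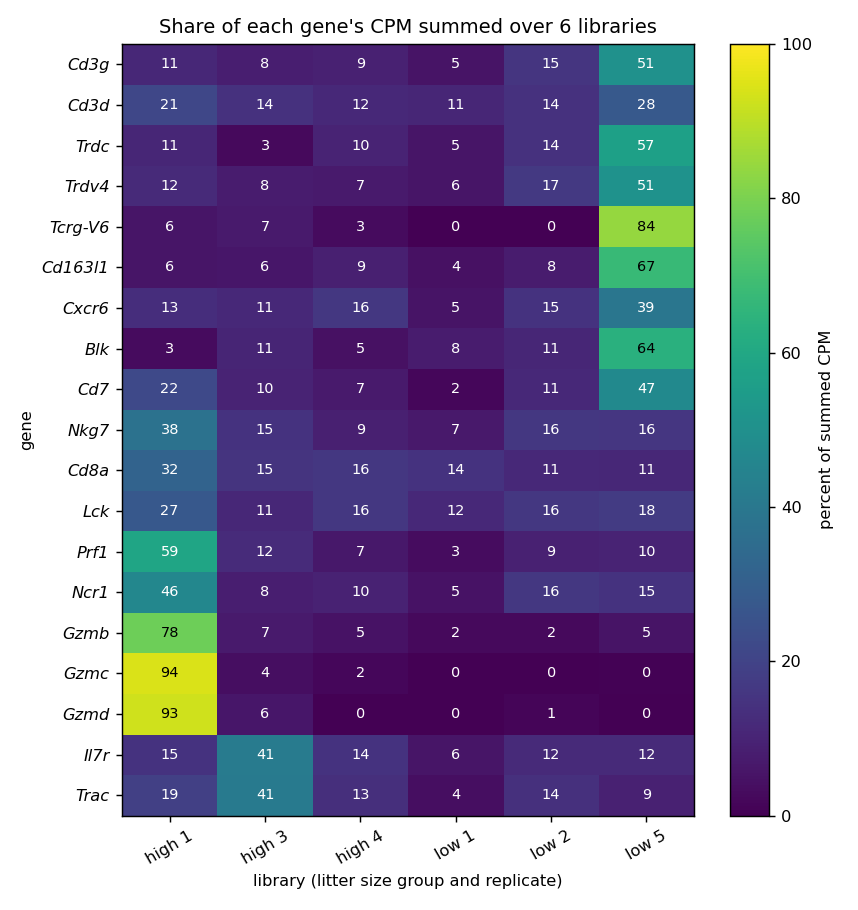
Share of each gene's CPM, summed over the 6 libraries, that fell in each library (colour and number, percent). Shown are 7 of the 10 genes, without Cd3e, Cd4 and Cd2, and further genes of gamma delta T cells and cytotoxic cells. Apart from Trdc and Gzmb, the further genes were picked after their values were seen. Cd7 appears only here, with 47.4% in low 5. Genes with other patterns, such as Tcrg-C2, Tcrg-C4, Gzmk and Klrb1c, are not shown. Low 5 holds 50.6% of Cd3g and 56.9% of Trdc, high 1 holds 37.5% of Nkg7 and 77.9% of Gzmb, and high 3 holds 41.4% of Il7r and 40.7% of Trac.

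Of 22 receptor signalling genes 21 were tested, 0 passed with edgeR, 9 were positive and 12 negative, and the median was -0.079. Rasgrp1, an activator of Ras in T cells, had 7.72, 4.0 and 5.43 CPM against 43.0, 14.8 and 8.96 CPM (log2 fold change -1.96, SE 0.62, edgeR adjusted p = 0.270), without overlap between the groups. It passed with DESeq2 (adjusted p = 0.0388), and without low 1 it had -1.05. Rasgrp1 was highest in low 1, which was the lowest library for 6 of the T and NK cell genes described first and the highest for 0. Simple epithelium markers also had their highest sum in low 1, at 4230 CPM. Which cells the Rasgrp1 RNA came from was not tested. Ubash3a, which dampens the receptor signal, averaged 4.57 ± 0.0693 CPM at high and 2.60 ± 0.838 CPM at low litter size (SD, n = 3; 0.82, SE 0.39, edgeR adjusted p = 0.395). The adaptor Lcp2 had 0.75 (SE 0.36) and Themis, needed for T cell development, 0.81 (SE 0.53).

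All 24 transcription factors and cytokine receptors were tested, 0 passed with edgeR, 21 were positive and 3 negative, and the median was 0.57. Ikzf1, a factor of all lymphoid lineages, had 12.9, 15.1 and 15 CPM (high), then 7.34, 6.77 and 8.89 CPM (low). Its groups did not overlap and its spread was small (log2 fold change 0.90, SE 0.25, edgeR adjusted p = 0.226, 0.82 to 1.02 with each library left out), and it passed with DESeq2 (adjusted p = 0.0118). Ets1, a factor of lymphocytes and endothelium, had 0.78 (SE 0.30), and 0.38 without the 3 libraries of low ovarian markers. Lef1, a TCF family factor of T cells and of epithelium, had 27.3 CPM in high 1 and 0.960 to 2.87 CPM elsewhere (2.89, SE 1.14, 0.56 without high 1 and 0.77 without those 3).

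The 8 genes whose profile was nearest to the mean profile of the 10, among 14275 candidates of at least 1 CPM, were Acot6, Msn, Zcchc24, Rem1, Irf8, Higd1b, Sh2b3 and Cox6b2. Their root mean square differences from that mean, over the 6 libraries, were 0.086 to 0.13 on the log2 scale, where the median candidate had 0.55. Acot6, the nearest, had 12.4, 12.2 and 7.94 CPM (high), then 5.89, 9.01 and 9.20 CPM (low). Msn, which links membrane to cytoskeleton, had 407, 385 and 272 CPM (high), then 203, 295 and 358 CPM (low). Irf8, a factor of dendritic cells and B cells, had 35.3, 33.9 and 21.4 CPM against 19.6, 25.9 and 28.4 CPM. Which cells the RNA of these 8 genes came from was not tested. Of the 10 genes themselves, Cd3e (0.24) and Cd2 (0.26) were nearest to the mean profile and Cd3g (0.91) was farthest.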

How the data were processed

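The authors deposited 1 table of estimated counts per gene for the 6 libraries, made from polyadenylated RNA per the labels. Per the submitters' processing notes, the tools were kallisto, Trim Galore and DESeq2 on build GRCm38, with no version. All values are whole, and treating them as kallisto estimates after rounding is an assumption that no label or header states. For the annotation release, the sources used here give nothing.

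Symbols matched 35869 of 36727 genes, and coordinates are from GENCODE M21. Members shared at most 3.10% of their 31-base words with transcripts of other genes. Cd3e overlaps an antisense gene model and a model on its own strand, and Lck overlaps a microRNA gene on its own strand. None of these models is among the deposited genes, and whether counting used strand is not given. Genes were filtered with filterByExpr (minimum count 10, minimum total 15), scaled by TMM and compared by the quasi-likelihood test of edgeR 4.0.16 (R 4.3.3), with Benjamini-Hochberg adjustment over 16455 genes and a threshold of 0.05. Alternatives used DESeq2 1.42.0 and limma 3.58.1. Ratios used a prior of 0.5 counts, and profiles a prior of 2.

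The members and the lists were chosen with earlier results of these data known. Named were the members, Ptprc, up to 4 tested genes of smallest p in each of 4 companion lists, and the 8 genes nearest in profile. For other lists up to 2 genes of highest mean were allowed, and sums are given in place of most of them. Further genes are marked where they appear. A gene that the rule gave is not reported here.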

Additional observations from a re-analysis of the deposited data

How the results depend on the processing

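No paired analysis was possible because replicate number 1 alone occurs in both groups. The 10 genes had 0 calls under all alternatives run, among 170 values (smallest adjusted p = 0.236, with DESeq2), of which 161 kept their direction. The values that turned were Cd4 without high 1 (-0.073), Lck (-0.18) and Nkg7 (-0.18) without high 1, Cd4 (-0.084) and Cd3d (0.32) without low 5, and Cd3e (-0.32), Cd4 (-0.12), Cd2 (-0.44) and Nkg7 (-0.43) without the 3 libraries of low ovarian markers, which was chosen after seeing the data. All of these came from leaving out libraries. A robust dispersion and an adjusted p threshold of 0.1 left the fold changes of the 10 genes unchanged, so those values could not turn. The cause of the turned directions was not tested. With each library left out, Cd3d ran from -0.47 to 0.32, Cd4 from -0.084 to 0.39, Lck from -0.18 to 0.52 and Nkg7 from -0.18 to 0.98. With those 3 left out the median of the 10 was -0.22, the ratio of Nkg7 to Cd3e -0.035, and Msn, Zcchc24, Rem1, Irf8, Higd1b, Sh2b3 and Cox6b2 had -0.075, -0.072, -0.22, -0.20, -0.10, -0.20 and -0.013. With each library left out the median of the 10 was 0.057 to 0.63, the Cd4 to Cd8a ratio -0.83 to -0.28, the Cd3e to Ptprc ratio -0.29 to 0.19 (0.19 without high 4, 0.070 without low 2) and the Nkg7 to Cd3e ratio -0.33 to 0.55 (-0.33 without high 1). Over all genes the count of calls was 1 with edgeR, 1017 with DESeq2, 631 with the likelihood ratio test, 3 with limma voom, 2 with library size alone, 0 to 1 with each library left out and 0 without the 3 libraries. Depth limits these genes: 1 count was 0.0390 to 0.0624 CPM.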

Other observations

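Rearranged T cell receptors carry variable segments, which the table lists as genes of their own. These were chosen after their values were seen and get no test, and their reads are easily shared between similar segments. Of 175 alpha, beta, gamma and delta segments in the table, 77 had at least 1 count. In high 1, high 3 and high 4 there were 36, 26 and 30 such segments with 79, 74 and 67 counts in all, and in low 1, low 2 and low 5 there were 14, 18 and 34 segments with 36, 74 and 226 counts. The 35 beta segments had 22, 27 and 28 counts in the high and 20, 32 and 39 counts in the low libraries, so low 5 was near the others. The 6 gamma segments had 5, 4 and 5 counts in the high and 1, 3 and 58 in the low libraries. The 134 alpha or delta segments had 52, 43 and 34 counts in the high and 15, 39 and 129 in the low libraries. Trdv4 and Tcrg-V6 gave 108 and 38 of the 226 counts of low 5.

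Pdcd1, the inhibitory receptor of exhausted T cells, had 742 counts in high 4, 2 and 11 in high 1 and high 3, and 20, 10 and 127 in the low libraries. Pdcd1 and the luteal marker Cyp11a1 had the same order of the 6 libraries. Cyp11a1 had 44, 93 and 53334 counts at high and 3896, 57 and 21975 at low litter size. Pdcd1 and the comparison were picked after the values were seen, and the part of luteal cells in the Pdcd1 values was not tested. Regulatory T cells are marked by Foxp3, also picked after its values were seen, which had 7, 13 and 24 counts in the high and 5, 6 and 28 in the low libraries.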
